A study of Mus musculus with 11 samples.

Results

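The genes described here are the amino acid, sugar and monocarboxylate transporters of 8 solute carrier families in the mouse microglial line BV2, a transformed cell line. They were taken by symbol, as every gene of the count tables named Slc1a, Slc2a, Slc3a, Slc7a, Slc16a, Slc36a, Slc38a or Slc43a with a number, which gave 71 genes. Slc2a1, Slc2a3, Slc7a2, Slc7a11 and Slc16a3 were set aside by the rule, so that 66 of the 36529 genes listed remained. Of these, 63 are carriers by name and 3 end in "os", for a gene on the opposite strand. Slc36a1os and Slc36a3os are annotated as long non-coding RNAs, and Slc7a6os encodes a protein that is not a transporter. All 66 are called the Slc genes here, and counts of Slc genes below include Slc7a6os, while neither of the non-coding RNAs was tested.

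Solute carriers move nutrients across the plasma membrane and across the membranes of lysosomes and other organelles. Heterodimeric amino acid transporters pair a heavy chain of the Slc3 family, which brings the complex to the cell surface, with a light chain of the Slc7 family, which carries the substrate. Sodium-coupled carriers of the Slc1 and Slc38 families load the cell with glutamine, serine and alanine, several Slc36 and Slc38 carriers sit on the lysosome, where amino acid supply is read by the mTORC1 kinase, and Slc16 carriers move lactate, pyruvate and aromatic amino acids. Activated macrophages and microglia are known to shift their use of glucose, glutamine and arginine, and these carriers set the entry of those substrates.

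The fragment, residues 1 to 151 of apolipoprotein E, was given at 25 μg/ml for 5 h as nApoE4 to 3 samples or as nApoE3 to 2 samples, and each fragment had 3 untreated controls of its own. Both fragments carry a histidine tag and differ at residue 112. The labels name C57BL/6 as the strain and PBS as the vehicle, whereas the methods of the study say that untreated cells received conditioned media, and these sources do not settle what the controls were given. Each fragment was tested in an experiment of its own, so that in any contrast of nApoE4 with nApoE3 the effect of fragment and that of experiment cannot be told apart. Nothing in the labels says whether the samples of a group came from separate cultures, and p-values measure the spread between these samples only.

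Libraries held 39732710 to 44162511 counts on genes in the nApoE4 experiment and 55809688 to 69768666 in the nApoE3 experiment, and 3 counts in a library came to 0.043 to 0.0755 CPM (counts scaled to library size). Of 12 microglial and macrophage markers, 10 had counts in every library and P2ry12 was at 0 in all of them, while Aif1 and Cx3cr1 were at 0.677 CPM or less. Their summed level was 3556 to 3692 CPM in the nApoE4 controls, 3539 to 3597 with nApoE4, 2425 to 2527 in the nApoE3 controls and 2586 to 2593 with nApoE3. All marker levels here and below are scaled to library size alone. The 5 astrocyte markers and the 4 fibroblast markers each summed to at most 0.521 CPM in any library, and the 4 oligodendrocyte markers to 9.16 to 24.9 CPM with Mog at 0. Trem2 stood apart in nApoE4 control replicate 1, at 64.9 CPM against at most 5.32 CPM in any other library. Another library differed in the Slc genes: nApoE4 control replicate 2 gave the Slc genes 0.376% of its gene counts, against 0.412% and 0.425% in the other nApoE4 controls. The share was 0.510 to 0.545% with nApoE4, 0.419 to 0.423% in the nApoE3 controls and 0.474 to 0.478% with nApoE3, so that the treated samples lay above their own controls in both experiments.

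The sequences upstream of 4 genes are shown because the largest rise (Slc2a6), 2 genes whose responses differed between the fragments (Slc1a4 and Slc7a14) and a lysosomal carrier that fell with both fragments (Slc36a1) recur in the results. Each run is the 250 bases before the RefSeq start site on GRCm38.p6, read on the strand of the gene, with matches in capitals to a kappaB site (GGGA and CC with any 4 bases between them), an E-box (CACGTG) or an amino acid response element (TGATGNAAN), searched on both strands.
Slc2a6, minus strand, chr2:27027999-27028248: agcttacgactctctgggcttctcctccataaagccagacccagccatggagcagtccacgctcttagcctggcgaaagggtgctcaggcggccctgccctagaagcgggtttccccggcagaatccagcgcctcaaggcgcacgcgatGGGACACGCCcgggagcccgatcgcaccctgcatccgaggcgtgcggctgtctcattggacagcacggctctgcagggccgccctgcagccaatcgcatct
Slc1a4, minus strand, chr11:20332714-20332963: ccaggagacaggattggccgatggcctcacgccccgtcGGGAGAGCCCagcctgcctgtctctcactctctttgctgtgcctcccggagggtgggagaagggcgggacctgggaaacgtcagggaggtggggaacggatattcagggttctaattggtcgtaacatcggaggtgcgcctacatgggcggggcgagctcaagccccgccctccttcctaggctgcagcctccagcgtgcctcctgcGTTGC
Slc7a14, minus strand, chr3:31310320-31310569: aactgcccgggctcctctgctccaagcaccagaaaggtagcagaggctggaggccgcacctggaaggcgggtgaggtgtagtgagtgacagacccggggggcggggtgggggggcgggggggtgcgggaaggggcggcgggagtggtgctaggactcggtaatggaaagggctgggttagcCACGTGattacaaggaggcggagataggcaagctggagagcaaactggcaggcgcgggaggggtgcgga
Slc36a1, plus strand, chr11:55204090-55204339: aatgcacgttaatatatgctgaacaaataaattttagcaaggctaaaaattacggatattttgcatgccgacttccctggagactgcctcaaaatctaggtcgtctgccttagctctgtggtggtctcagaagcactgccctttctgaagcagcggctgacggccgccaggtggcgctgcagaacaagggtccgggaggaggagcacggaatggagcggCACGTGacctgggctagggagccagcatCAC

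Slc2a6 held 1 kappaB match, GGGACACGCC, 101 bases before the start. Slc1a4 held a kappaB match, GGGAGAGCCC, 212 bases before the start, and an amino acid response element on the other strand that runs over the start site and reads GTTGCATCA on the strand of the gene. Slc7a14 held 1 E-box, 69 bases before the start, and Slc36a1 held 2, one of which begins 31 bases before the start and the other of which runs over it. A promoter was listed for 50 of the 66 genes. In the 300 bases around the start, the kappaB letters were present in 16 of them (32.0%) against 22.9% of all 27025 genes with a promoter in the table, the E-box in 9 (18.0%) against 8.09%, and the amino acid response element in 2 (4.0%) against 4.5%. These are letter matches in a short window and say nothing of binding.

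Counts were found in every library for 44 of the 66 genes, in some libraries only for 20, and in none for Slc7a4 and Slc36a3os. By family these were 11 of 13 Slc16 genes, 8 of 11 for Slc38, 8 of 14 for Slc7, 5 of 7 for Slc1, 4 of 6 for Slc36 and 3 of 3 for Slc43. Both heavy chains, Slc3a1 and Slc3a2, were counted throughout. Of the sugar carriers, 3 of 10 Slc2 genes, Slc2a6, Slc2a8 and Slc2a9, had counts in every library. The insulin-responsive carrier Slc2a4 and the liver carrier Slc2a2 had at most 1 and 5 counts in a library. In all, 20 genes passed the filter on low counts in no comparison and never exceeded 20 counts.

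The 5 most counted genes, Slc3a2, Slc38a1, Slc7a5, Slc7a1 and Slc38a2, took 49.2% of all counts on the Slc genes, and 20 genes took 97.7%. On a scale that allows genes to be compared, CPM per kb of exon, Slc3a2, the heavy chain also called CD98, had the highest mean of the 66 in all 4 groups, at 107 and 123 per kb in the controls and 218 and 220.1 with nApoE4 and nApoE3. In the nApoE4 controls it was followed by the glutamine carrier Slc1a5 (90.4 to 93.3 per kb over libraries) and the leucine carrier Slc7a5 (86.9 to 95.8), whose ranges overlapped, and then by the lactate carrier Slc16a1 (47.9 to 49.1) and the glutamine carrier Slc38a2 (44.1 to 48.6), whose ranges also overlapped. Slc2a6 was in place 19 among the nApoE4 controls and in place 2 with nApoE4, at 7.89 and 134 per kb, and went from place 16 to place 4 with nApoE3. Slc43a2 went from place 7 to place 17 with nApoE4 and from place 12 to place 16 with nApoE3.

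**Figure D1:**
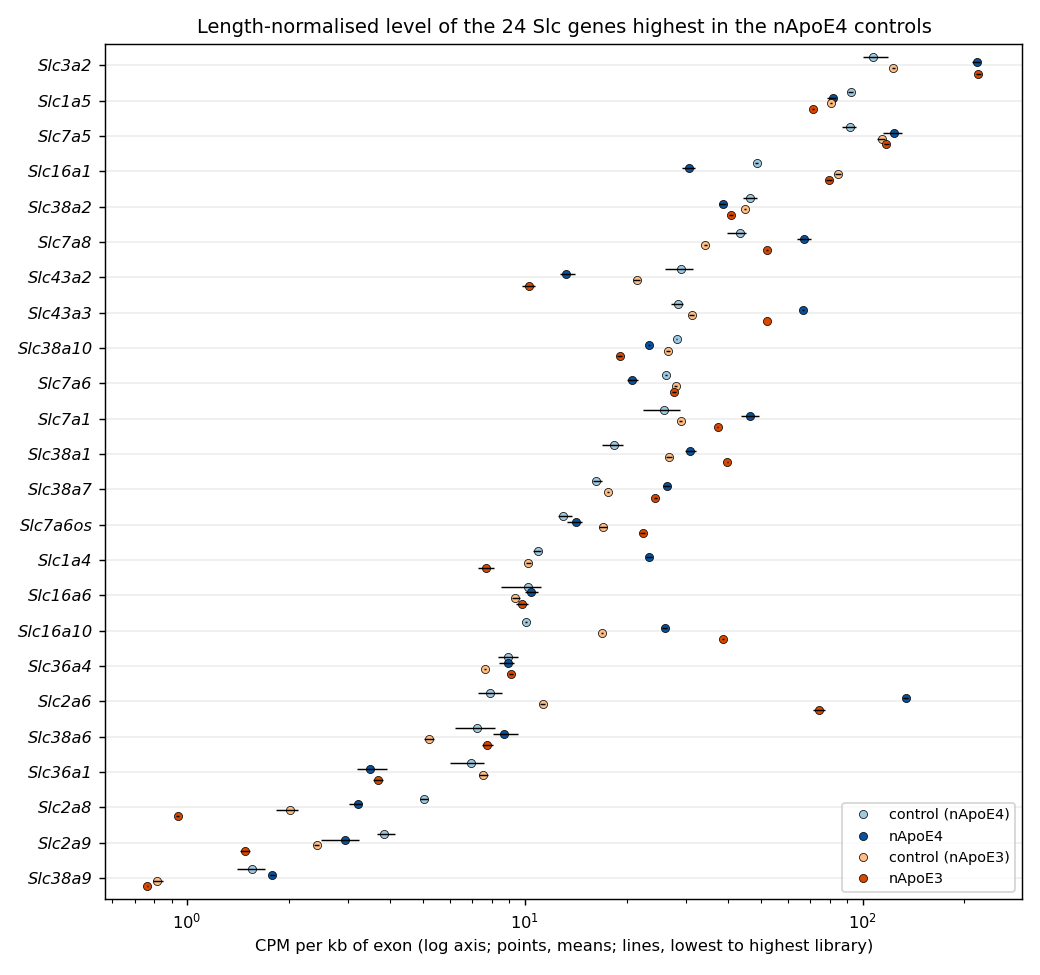
Length-normalised level (CPM per kb of exon, log axis) of the 24 Slc genes highest in the nApoE4 controls, with the mean of each of the 4 groups as a point and the lowest to highest library as a line. Slc3a2 was highest in every group, and Slc2a6 went from 7.89 to 134 with nApoE4 and from 11.3 to 74.3 with nApoE3.

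Against its own controls, nApoE4 raised 16 and lowered 13 of the 42 Slc genes tested, by edgeR's quasi-likelihood test at an adjusted p under 0.05. Slc2a6, the glutamate carriers Slc1a2 and Slc1a3, the aromatic amino acid carrier Slc16a10, Slc43a3, Slc1a4 and Slc3a2 rose by more than 2-fold, and Slc36a2, Slc36a3, Slc43a1 and Slc43a2 fell by more than 2-fold. These shares, 38.1% higher and 31% lower, stand beside a background of 28.6% higher and 28.6% lower over the 14240 genes tested, and the 7 and 4 changes above 2-fold beside 10.2% and 7.46%. The median log2 fold change was 0.02 over the Slc genes and 0.00 over all genes. The 5 neuronal markers moved with nApoE4, from a summed 2.11 to 2.69 CPM in the controls to 5.27 to 6.27 CPM, most of it Tubb3, and 2 of the 5 had counts in every library. The 4 fibroblast markers went from 0.0679 to 0.151 CPM to 0.250 to 0.266 CPM, also with 2 counted in every library. These fibroblast sums rest on few reads, as 0.0679 CPM is 3 counts in nApoE4 control replicate 2. The part of either list in any result was not tested. In bulk RNA, fewer cells that carry a transcript and less of it per cell cannot be told apart.

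With nApoE3, 17 of 44 Slc genes rose and 11 fell. Here the background was 33.1% higher and 34.6% lower over 14817 genes, against 38.6% and 25% of the Slc genes. Among them, 6 rose by more than 2-fold, namely Slc2a6, Slc1a2, Slc1a3, Slc7a14, Slc16a5 and Slc16a10, beside a background of 9.6%. Another 5 fell by more than 2-fold, namely Slc36a2, Slc16a12, Slc2a8, Slc43a2 and Slc36a1, beside 6.57%. The median log2 fold change of the Slc genes was 0.08, and that of all genes was 0.00.

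Of the 41 Slc genes tested with both fragments, 13 rose with both and 9 fell with both, which is 53.7% in the same direction, while 43.6% of the 13750 genes tested with both did so. One, Slc1a4, was called in opposite directions (2.44%, against 3.65% of all genes). The 4 called with nApoE3 alone all rose, Slc7a14, Slc36a4, Slc38a4 and Slc7a6os. Another 5 were called with nApoE4 alone, of which Slc7a5 and Slc38a9 rose and Slc7a6, Slc36a3 and Slc43a1 fell. The 2 comparisons share no sample.

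**Figure D2:**
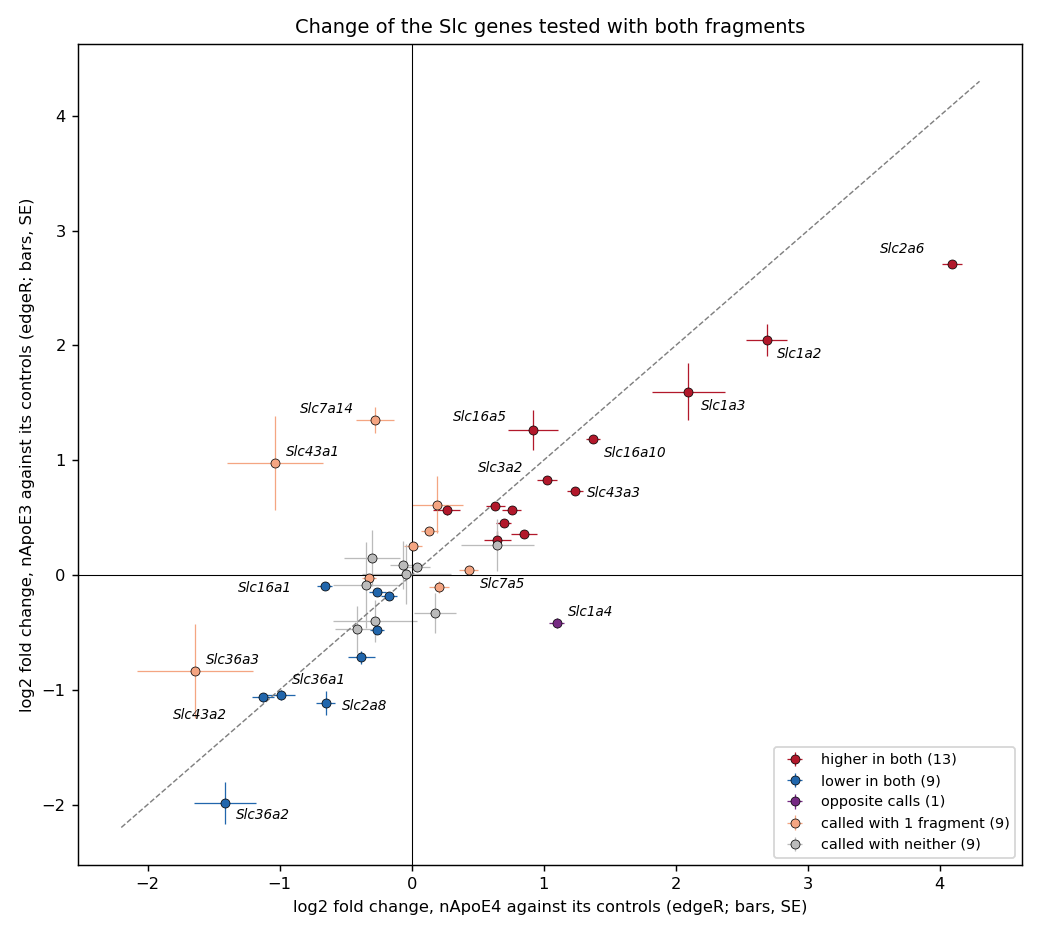
Log2 fold change with nApoE4 (horizontal) and with nApoE3 (vertical) of the 41 Slc genes tested with both fragments, with standard errors as bars, a dashed line of equal change, and colours for the calls at an adjusted p under 0.05. Slc2a6 lies farthest out at 4.09 and 2.71, Slc1a4 is the point called in opposite directions, and Slc7a14 lies high on the vertical axis alone.

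The heavy chain rose with both fragments. Slc3a2, the partner that carries Slc7 light chains to the membrane, was at 364, 420.3 and 352 CPM in the nApoE4 controls and 785, 777 and 741 CPM with nApoE4, a log2 fold change of 1.02 (SE 0.08, adjusted p = 3.23e-06). In the nApoE3 experiment it was at 439, 431 and 436 CPM in the controls and 764 and 789 CPM with the fragment, a change of 0.83 (SE 0.02, adjusted p = 4.35e-12). Every treated sample lay above every control, and the treated samples of both experiments overlapped each other. The other heavy chain, Slc3a1, stayed below 0.7 CPM in every library and was not called with either fragment, and 26.5% of its exon bases overlap Prepl on the other strand.

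Its light chains did not move as one. Slc7a8, which exchanges neutral amino acids, was at 227, 198 and 227 CPM without and 334, 353 and 321 CPM with nApoE4, a change of 0.63 (SE 0.07, adjusted p = 6.21e-05). With nApoE3, Slc7a8 went from 170.0, 170.3 and 173 to 259.8 and 262 CPM, a log2 fold change of 0.60 (SE 0.02, adjusted p = 1.66e-10). Of the 4 light chains described here it had the closest log2 fold changes with the 2 fragments. Slc7a5, the leucine exchanger LAT1, was at 345, 322 and 355 CPM in the controls and 465, 483 and 425 CPM with nApoE4, a change of 0.43 (SE 0.07, adjusted p = 0.000671). In the nApoE3 experiment Slc7a5 had 424, 431 and 410.2 CPM in the controls and 444 and 428 CPM with the fragment, which overlapped, and the change of 0.04 did not pass (adjusted p = 0.155). The nApoE3 controls started higher than the nApoE4 controls, and the treated samples of both experiments overlapped.

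Slc7a7 and Slc7a6 are light chains that exchange cationic for neutral amino acids. Slc7a7 was low, at 3.40, 3.30 and 3.58 CPM in the nApoE4 controls and 5.53, 5.17 and 5.37 CPM with nApoE4, a log2 fold change of 0.65 (SE 0.10, adjusted p = 0.000463). With nApoE3 it went from 6.59, 6.49 and 5.69 CPM to 7.78 and 7.76 CPM, a change of 0.30 (SE 0.08, adjusted p = 0.00627). Groups did not overlap in either experiment, and 7.0% of its exon bases overlap Oxa1l, which reached 4023 counts, on the other strand. Slc7a6 fell with nApoE4, from 119.5, 119 and 120.3 CPM to 99.1, 94.3 and 91.7 CPM, a log2 fold change of -0.33 (SE 0.06, adjusted p = 0.000736). With nApoE3 Slc7a6 was at 128 and 125 CPM against 129, 128 and 126 CPM in the controls, and the change of -0.02 did not pass (adjusted p = 0.452). The summed level of the 4 light chains per kb of exon, divided by that of Slc3a2, was 1.29 to 1.69 in the nApoE4 controls and 0.955 to 1.01 with nApoE4, and 1.41 to 1.48 in the nApoE3 controls and 0.883 and 0.933 with nApoE3. Each treated library was below each control of its experiment. These 4 do not include Slc7a11, which also pairs with Slc3a2 and is one of the carriers set aside by the rule. Slc7a11 was then summed in, chosen after seeing the data. The ratio became 1.30 to 1.70 in the nApoE4 controls and 1.15 to 1.22 with nApoE4. In the nApoE3 experiment it became 1.44 to 1.501 in the controls and 1.26 and 1.28 with nApoE3. The gap narrowed, and each treated library stayed below each control of its experiment. The nApoE4 libraries, above the nApoE3 libraries without Slc7a11, lay below them with it. The ratios with Slc7a11 rest on the 13922 exon bases taken for that gene, and a shorter length would narrow the gap further.

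Among the cationic carriers of the Slc7 family, Slc7a1, the arginine and lysine carrier CAT1, had 301, 258 and 331 CPM in the nApoE4 controls and 530.1, 569 and 502 CPM with nApoE4, a change of 0.85 (SE 0.10, adjusted p = 4.80e-05). The nApoE3 experiment gave 334, 336 and 329.9 CPM for the controls and 428 and 431 CPM for the treated samples, a change of 0.36 (SE 0.02, adjusted p = 8.77e-09). Both rises were clear of the control ranges. Slc7a14, a relative of these carriers found on lysosomes, rose with nApoE3, from 2.46, 2.91 and 2.77 CPM to 7.49 and 6.37 CPM (log2 fold change 1.35, SE 0.11, adjusted p = 3.72e-07), whereas with nApoE4 it was at 1.86, 1.78 and 2.19 CPM against 2.37, 2.39 and 2.33 CPM in the controls, a change of -0.28 that did not pass (adjusted p = 0.132). Slc7a3, at most 0.423 CPM, had a log2 fold change of -0.96 (SE 0.30, adjusted p = 0.0211) with nApoE4, and lost the call without nApoE4 control replicate 1 and without either of nApoE4 replicates 1 and 3 (adjusted p of 0.070 to 0.079). Slc7a6os, the neighbour of Slc7a6 that is no transporter, rose with nApoE3, from 73.6, 72.2 and 70.1 CPM to 95.8 and 92.6 CPM (log2 fold change 0.38, SE 0.03, adjusted p = 2.59e-07), and was not called with nApoE4 (adjusted p = 0.112), though it was without nApoE4 control replicate 2 (0.0216).

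The Slc1 family held the 1 opposite call and 2 rises of more than 2-fold with both fragments. Slc1a2, the glutamate carrier GLT-1 that is abundant in astrocytes, was at 1.10, 0.78 and 1.11 CPM in the nApoE4 controls and 5.92, 6.76 and 6.60 CPM with nApoE4, a log2 fold change of 2.69 (SE 0.16, adjusted p = 4.43e-07). With nApoE3, Slc1a2 went from 0.991, 0.985 and 1.19 to 4.296 and 4.44 CPM (log2 fold change 2.05, SE 0.14, adjusted p = 5.34e-08). Slc1a3, the glutamate carrier GLAST, went from 0.235, 0.156 and 0.171 to 0.863, 0.866 and 0.68 CPM with nApoE4 (log2 fold change 2.09, SE 0.28, adjusted p = 0.000135) and from 0.397, 0.404 and 0.692 to 1.65 and 1.35 CPM with nApoE3 (log2 fold change 1.60, SE 0.25, adjusted p = 0.000115). Both are low genes whose treated samples lay above their own controls, and the 5 astrocyte markers summed to 0.183 to 0.411 CPM with nApoE4 and to 0.0787 and 0.196 CPM with nApoE3, no higher than the highest control of either experiment except for 1 nApoE3 library. The neuronal glutamate carrier Slc1a1 was below 1.1 CPM and called with neither fragment, but higher with nApoE4 once control replicate 1 was left out (adjusted p = 0.032). Of the Slc1a1 exon bases, 31.9% overlap 4430402I18Rik, which reached 99 counts, on the other strand.

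Slc1a4, the serine, alanine and threonine carrier ASCT1, rose with one fragment and fell with the other. It was at 41.6, 44.0 and 43.04 CPM in the nApoE4 controls and 89.7, 93.4 and 90.9 CPM with nApoE4, a change of 1.10 (SE 0.05, adjusted p = 1.31e-07). In the nApoE3 experiment it was at 40.9, 39.5 and 40.3 CPM in the controls and 28.6 and 31.8 CPM with nApoE3, a change of -0.42 (SE 0.05, adjusted p = 3.99e-06). The 2 control groups lay close together, nApoE4 lay above and nApoE3 below them, and no treated sample overlapped a control. Slc1a5, the glutamine carrier ASCT2, fell slightly with both, from 377, 387 and 389 to 347, 348 and 326 CPM with nApoE4 (log2 fold change -0.17, SE 0.06, adjusted p = 0.0338) and from 338, 335 and 334 to 295 and 298 CPM with nApoE3 (log2 fold change -0.18, SE 0.02, adjusted p = 6.34e-06). The nApoE4 call was lost in 5 of the 6 fits without 1 library, all but that without nApoE4 control replicate 2, with adjusted p up to 0.147, and the nApoE3 call held in all 5 such fits.

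Slc38 carriers, which take up glutamine and other neutral amino acids with sodium, rose in 4 and fell in 2 of 7 cases with each fragment, beside 28.6% of all genes in each direction with nApoE4, and 33.1% higher and 34.6% lower with nApoE3. Slc38a1 was at 319.6, 292 and 337 CPM in the nApoE4 controls and 514, 554 and 529 CPM with nApoE4 (log2 fold change 0.76, SE 0.07, adjusted p = 1.53e-05), and at 453, 457 and 471 and 683 and 689 CPM without and with nApoE3 (log2 fold change 0.57, SE 0.02, adjusted p = 2.38e-10). Slc38a2, its close relative, which lies 44.0 kb away on chromosome 15, moved the other way, from 409, 390.0 and 429.9 to 347, 344 and 332 CPM with nApoE4 (log2 fold change -0.26, SE 0.06, adjusted p = 0.00622) and from 398, 394 and 396 CPM to a mean of 359.6 CPM over the 2 samples with nApoE3 (log2 fold change -0.15, SE 0.02, adjusted p = 6.75e-05). Neither gene had overlapping groups. Slc38a7, a glutamine carrier of the lysosome, rose from 65.8, 66.2 and 70.3 to 107, 109 and 111 CPM with nApoE4 (log2 fold change 0.70, SE 0.06, adjusted p = 4.29e-06) and from 72.7, 73.8 and 73.3 to 102 and 99.9 CPM with nApoE3 (log2 fold change 0.46, SE 0.03, adjusted p = 1.39e-08). Slc38a10 fell, from 179.5, 181 and 181 to 149, 150.4 and 151 CPM (log2 fold change -0.26, SE 0.05, adjusted p = 0.00195) and from 170.5, 169 and 173 to 125 and 120.5 CPM (log2 fold change -0.48, SE 0.03, adjusted p = 6.24e-09).

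Slc38a9, the lysosomal carrier through which mTORC1 senses arginine, was at 26.2, 23.5 and 28.4 CPM in the nApoE4 controls and 29.4, 30.4 and 29.8 CPM with nApoE4, a small change of 0.20 (SE 0.08, adjusted p = 0.0444) that was lost without any 1 library other than control replicate 3, with adjusted p up to 0.125. With nApoE3 Slc38a9 was at 12.7 and 12.8 CPM against 14.2, 13.4 and 13.3 CPM in the controls, and the change of -0.10 did not pass (adjusted p = 0.0897). Its level differed more between the experiments than with either fragment. Slc38a6 rose with nApoE3, from 41.9, 40.4 and 39.2 to 58.0 and 62.5 CPM (log2 fold change 0.57, SE 0.04, adjusted p = 8.82e-08), while its nApoE4 change of 0.27 (adjusted p = 0.0486) had overlapping groups and was lost without either of control replicates 1 and 2 and either of nApoE4 replicates 2 and 3 (adjusted p up to 0.19). Slc38a4, near 1 CPM, was called higher with nApoE3 (adjusted p = 0.0465) with overlapping groups, and lost that call without nApoE3 replicate 2 (adjusted p = 0.397) and without either of control replicates 2 and 3 (0.117 and 0.121).

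In the Slc36 family of mostly proton-coupled carriers, 3 of 4 tested genes fell with nApoE4 and 2 of 4 with nApoE3, beside 28.6% and 34.6% of all genes. Slc36a1, which exports amino acids from the lysosome, was at 40.6, 33.8 and 42.6 CPM in the nApoE4 controls and 17.9, 22.0 and 18.7 CPM with nApoE4, a change of -0.99 (SE 0.11, adjusted p = 3.37e-05). With nApoE3 it went from 42.5, 43.7 and 41.2 to 19.97 and 21.5 CPM, a change of -1.04 (SE 0.04, adjusted p = 5.77e-10). Both treated groups lay at about the same level and below every control. Slc36a2, a glycine and proline carrier on the same stretch of chromosome 11, fell from 2.86, 1.72 and 2.48 to 0.956, 0.698 and 0.982 CPM (log2 fold change -1.41, SE 0.24, adjusted p = 0.000677) with nApoE4 and from 2.83, 3.46 and 2.61 to 0.79 and 0.708 CPM (log2 fold change -1.99, SE 0.18, adjusted p = 8.67e-07) with nApoE3. Slc36a3, below 0.5 CPM, fell with nApoE4 (log2 fold change -1.64, SE 0.44, adjusted p = 0.01) and had a change of -0.84 with nApoE3 that did not pass (adjusted p = 0.0892). Slc36a4, which lies on another chromosome and does not couple to protons, was at 57.3, 54.6 and 62.5 and 54.9, 60.8 and 59.0 CPM without and with nApoE4, and rose with nApoE3 from 49.5, 50.1 and 50.1 to 60.5 and 58.8 CPM (log2 fold change 0.25, SE 0.03, adjusted p = 1.21e-05).

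The 3 Slc43 genes went different ways. Slc43a2, the large neutral amino acid carrier LAT4, fell from 295, 261 and 316 to 128, 141 and 129 CPM with nApoE4 (log2 fold change -1.12, SE 0.08, adjusted p = 2.33e-06) and from 216, 220.1 and 209.5 to 98.5 and 108 CPM with nApoE3 (log2 fold change -1.07, SE 0.04, adjusted p = 9.36e-11). Slc43a3, which carries purine bases rather than amino acids, rose from 129, 121 and 131 to 295, 299 and 298 CPM with nApoE4 (log2 fold change 1.23, SE 0.06, adjusted p = 1.14e-07) and from 141, 136 and 142 to 232 and 232 CPM with nApoE3 (log2 fold change 0.73, SE 0.02, adjusted p = 7.33e-11). Neither gene had a treated sample within the range of its controls. Slc43a1, the carrier LAT3, was below 0.8 CPM everywhere, and its log2 fold change of -1.04 (SE 0.36, adjusted p = 0.0345) with nApoE4 was lost without either of control replicates 1 and 3 and either of nApoE4 replicates 1 and 3, with adjusted p up to 0.147.

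Slc2a6, a sugar carrier, had the largest change of the 66 genes with each fragment. This hexose carrier, found on lysosomes of macrophages, was at 25.2, 27.5 and 23.4 CPM in the nApoE4 controls and 438, 431 and 423 CPM with nApoE4, 17.1-fold higher, a log2 change of 4.09 (SE 0.08, adjusted p = 4.23e-10). With nApoE3, Slc2a6 rose 6.52-fold, from 35.5, 36.8 and 37.0 CPM to 248 and 229 CPM, a log2 change of 2.71 (SE 0.04, adjusted p = 2.03e-14). The lowest treated library was 229 CPM and the highest control 37.0 CPM. Slc2a8, an intracellular hexose carrier, fell from 16.2, 16.6 and 15.8 to 10.5, 10.6 and 9.67 CPM with nApoE4 (log2 fold change -0.65, SE 0.07, adjusted p = 4.97e-05) and from 6.86, 6.74 and 5.87 to 2.97 and 3.05 CPM with nApoE3 (log2 fold change -1.12, SE 0.10, adjusted p = 9.49e-07). Slc2a9, a urate carrier, fell from 18.9, 18.6 and 20.9 to 12.7, 16.4 and 15.6 CPM (log2 fold change -0.38, SE 0.10, adjusted p = 0.01) and from 12.4, 12.5 and 12.1 to 7.29 and 7.79 CPM (log2 fold change -0.72, SE 0.06, adjusted p = 3.09e-07).

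Of the Slc16 carriers, 2 of 9 tested rose and 1 fell with nApoE4, beside 28.6% of all genes in each direction, and 2 of 11 rose and 2 fell with nApoE3, beside 33.1% and 34.6%. Slc16a10, which carries aromatic amino acids and thyroid hormone, rose from 73.8, 73.5 and 74.9 to 187, 192 and 194 CPM with nApoE4 (log2 fold change 1.37, SE 0.05, adjusted p = 2.90e-08) and from 123, 124 and 125 to 286 and 282 CPM with nApoE3 (log2 fold change 1.19, SE 0.02, adjusted p = 3.26e-13). Slc16a1, the lactate and pyruvate carrier MCT1, fell from 216, 217 and 212 to 141, 129 and 137 CPM with nApoE4 (log2 fold change -0.66, SE 0.06, adjusted p = 8.51e-06). With nApoE3 Slc16a1 was at 367.2, 382 and 373 CPM in the controls and 358 and 344 CPM in the treated samples (log2 fold change -0.10, SE 0.03, adjusted p = 0.00443), and that small fall was lost without nApoE3 replicate 2 (adjusted p = 0.0616). The nApoE3 samples of Slc16a1 thus sat close under their controls, and the nApoE4 samples well under theirs. Slc16a5 rose at a low level, from 0.822, 0.691 and 0.771 to 1.52, 1.25 and 1.54 CPM (log2 fold change 0.92, SE 0.19, adjusted p = 0.00248) and from 1.80, 1.23 and 1.60 to 3.27 and 4.20 CPM (log2 fold change 1.26, SE 0.17, adjusted p = 3.61e-05). Slc16a6, at 41.4 to 54.7 CPM, was called with neither fragment, except higher with nApoE3 once nApoE3 replicate 1 was left out (adjusted p = 0.039), and 21.5% of its exon bases overlap Amz2 on the other strand. Slc16a12, at most 0.269 CPM, was called lower with nApoE3 (log2 fold change -1.76, SE 0.61, adjusted p = 0.0233), and lost the call without nApoE3 replicate 2 (adjusted p = 0.211).

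**Figure D3:**
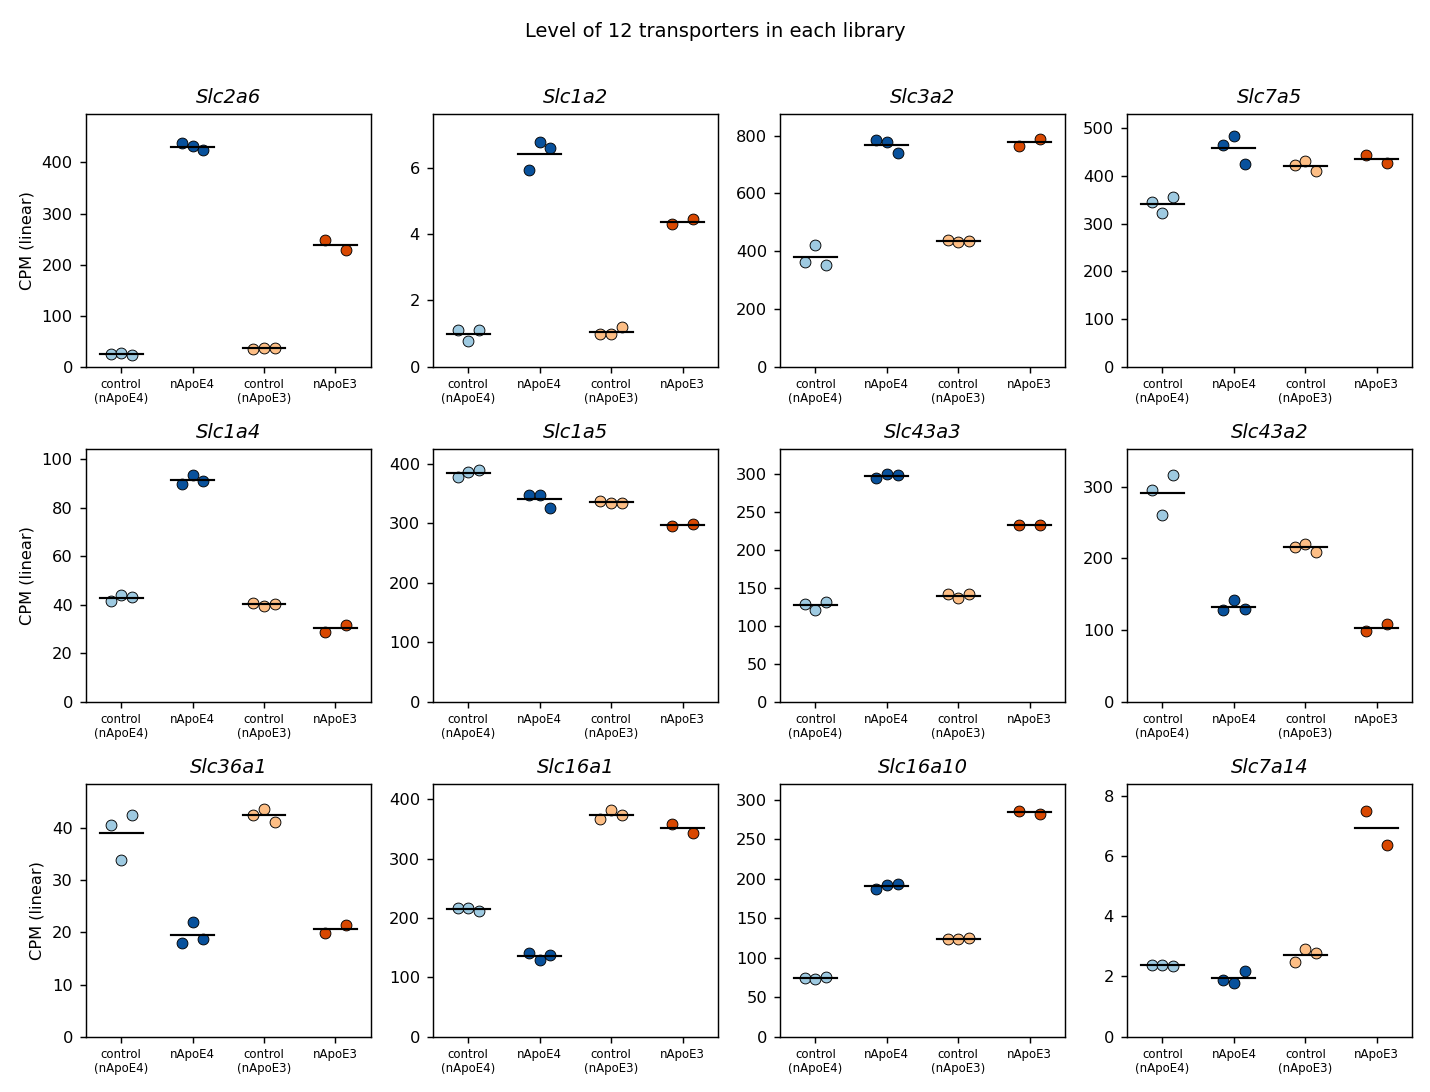
Level in CPM (linear axis from 0) of 12 transporters in each of the 11 libraries, as points by group, with group means as bars. Slc2a6, Slc1a2, Slc3a2, Slc43a3 and Slc16a10 lie higher in all treated libraries than in their own controls, Slc43a2 and Slc36a1 lie lower, and Slc1a4 lies higher with nApoE4 and lower with nApoE3.

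Whether an Slc gene responded differently to the fragments was tested as the change with nApoE4 minus the change with nApoE3, over all 11 libraries. Of 43 tested, 11 had a higher value for nApoE4 and 6 a lower one, beside a background of 14.4% and 13.9% of 15287 genes. This contrast contains any difference between the experiments. Slc1a4 led the higher ones, at 1.505 (SE 0.07, adjusted p = 2.42e-08), followed by Slc2a6 at 1.38 (SE 0.09, adjusted p = 1.94e-07). Slc7a14 had the lowest value among genes of at least 1 CPM, at -1.64 (SE 0.18, adjusted p = 1.84e-05). These 3, together with Slc43a3 (0.49, SE 0.06, adjusted p = 8.72e-05) and Slc16a1 (-0.57, SE 0.07, adjusted p = 3.67e-05), kept their calls in all 11 fits that left out 1 library.

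Slc7a1, Slc7a5 and Slc7a6 kept their calls in those 11 fits as well, at 0.48 (SE 0.11, adjusted p = 0.00639), 0.38 (SE 0.08, adjusted p = 0.00408) and -0.31 (SE 0.06, adjusted p = 0.002). However, Slc7a1, Slc7a5 and Slc7a6 lost them with the replicate number as a block (adjusted p = 0.0694, 0.0609 and 0.0555). The remaining calls lost the threshold in at least 1 of the 11 fits. Slc1a2, at 0.63 (SE 0.21, adjusted p = 0.0389), was lost in 7 of them, held only without nApoE4 control replicates 1 or 3, nApoE4 replicate 1 or nApoE3 control replicate 2, and had adjusted p up to 0.115. Slc7a6os, at -0.26 (SE 0.08, adjusted p = 0.0252), was lost without nApoE4 replicate 2, nApoE3 control replicates 2 or 3 or either nApoE3 sample (up to 0.117). Slc36a4, at -0.25 (SE 0.08, adjusted p = 0.0342), was lost in all but the fits without replicate 2 of nApoE4 or of its controls (up to 0.131). Slc3a2 had a difference of 0.18 (SE 0.09) that did not pass (adjusted p = 0.155), but passed without nApoE4 control replicate 2 (adjusted p = 0.00115), the library with the highest Slc3a2 among those controls. Slc7a8, Slc36a1, Slc1a5 and Slc43a2 had differences of 0.02 (SE 0.08), 0.04 (SE 0.13), 0.00 (SE 0.06) and -0.07 (SE 0.10) that did not pass. With the nApoE3 group reduced to 1 sample, 7 higher and 3 lower calls were left without replicate 1, and 6 and 4 without replicate 2.

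**Figure D4:**
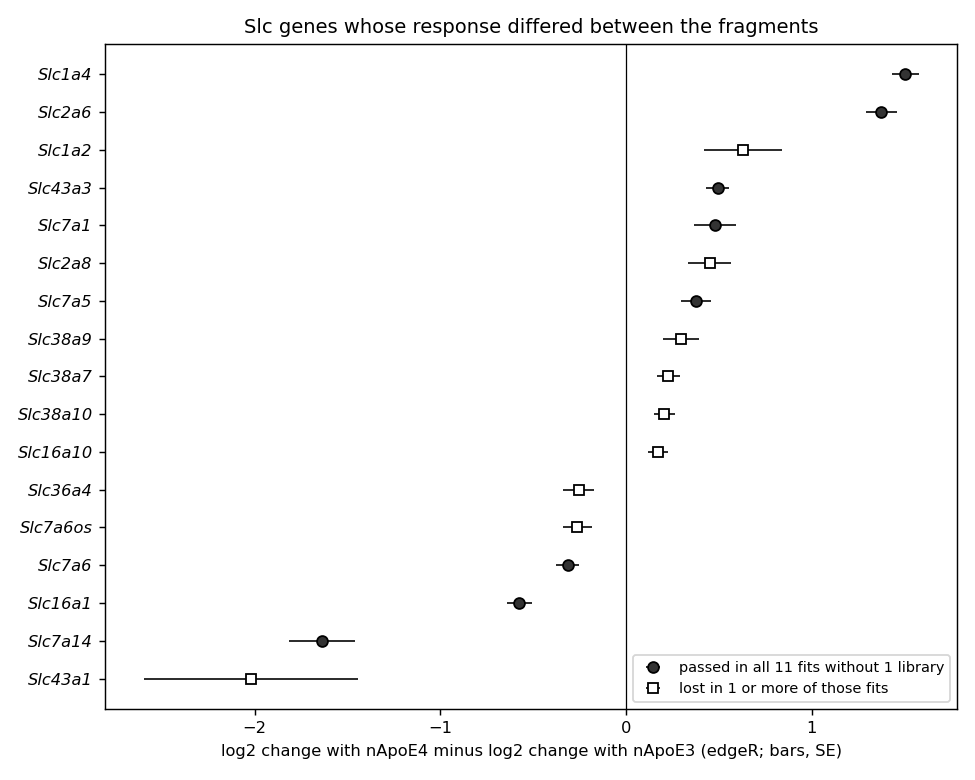
Difference in log2 change (nApoE4 response minus nApoE3 response) of the 17 Slc genes that passed the test of that difference, with standard errors as bars. Filled circles mark the 8 that passed in all 11 fits without 1 library, with Slc1a4 at 1.505 and Slc7a14 at -1.64 at their ends.

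The untreated cells of the 2 experiments also differed. In the nApoE4 controls, 17 Slc genes were higher and 11 lower than in the nApoE3 controls, of 42 tested, or 40.5% and 26.2%, beside 34.9% and 34.4% of 14249 genes. Slc16a14, a carrier with no settled substrate, was at 1.36, 1.14 and 1.89 CPM in the nApoE4 controls and 0.184, 0.226 and 0.231 CPM in the nApoE3 controls (log2 difference 2.79, SE 0.26, adjusted p = 3.20e-05). Slc16a9 was at 5.47, 5.22 and 4.80 and 0.821, 0.678 and 0.78 CPM (log2 difference 2.77, SE 0.13, adjusted p = 1.15e-06), and neither of these genes was called with a fragment. Among genes of at least 1 CPM in some control group, Slc2a8, Slc38a9 and Slc7a15 followed, at 1.33, 0.95 and 0.73 on the log2 scale (adjusted p = 2.54e-06, 1.36e-05 and 0.00434). Below that level, Slc7a3 (2.82, adjusted p = 0.000275) and Slc43a1 (1.76, adjusted p = 0.00513) were also higher in the nApoE4 controls.

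Among the lower ones were 8 of the 13 genes that rose with both fragments, including Slc16a5 at -1.001 (SE 0.19, adjusted p = 0.00195), Slc7a7 at -0.85 (SE 0.09, adjusted p = 8.57e-05), Slc16a10 at -0.73 (SE 0.04, adjusted p = 2.03e-06) and Slc38a1 at -0.53 (SE 0.06, adjusted p = 9.52e-05). The other 4 were Slc1a3 (-1.37, adjusted p = 0.00716), Slc2a6 (-0.51, adjusted p = 0.000178), Slc3a2 (-0.18, adjusted p = 0.0387) and Slc43a3 (-0.12, adjusted p = 0.0493). Slc3a2 lost this call without any 1 library other than nApoE4 control replicate 2, and Slc43a3 without nApoE4 control replicate 1 or any 1 of the nApoE3 controls (adjusted p up to 0.129 and 0.136). Of the remaining risers, Slc38a6 (0.49) and Slc7a8 (0.36) were higher in the nApoE4 controls, and Slc1a2, Slc38a7 and Slc7a1 were not called. Over all genes tested, 34.4% were lower there, and the share among all genes that rose with both fragments was not counted. Both control groups are also the baselines of the rises by which these genes were chosen. The part of that choice in this count was not tested. Slc16a1 was also lower in the nApoE4 controls, at -0.78 (SE 0.04, adjusted p = 2.13e-06), so that it differed more between the control groups than between nApoE4 and its controls. Slc1a4 did not pass between the control groups, at 0.11 (adjusted p = 0.0526). Without nApoE4 control replicate 2, 20 Slc genes were higher and 14 lower.

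The 5 carriers set aside by the rule were all called with each fragment. Slc7a11, the cystine carrier, and Slc7a2, an arginine carrier, rose with both, at 4.76 and 4.67 for Slc7a11 and 1.66 and 1.41 for Slc7a2. The glucose carrier Slc2a1 and the lactate carrier Slc16a3 fell with nApoE4 and rose with nApoE3, at -1.35 and 1.59 for Slc2a1 and -0.92 and 0.51 for Slc16a3. Both were higher in the nApoE4 controls than in the nApoE3 controls, by 2.16 and 1.17 on the log2 scale. Slc2a3 fell with both (-0.51 and -0.45).

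The proteins that these carriers need or feed were counted from lists, and the genes named from the longer lists were chosen after their values were seen. Their counts stand beside 28.6% of all genes in each direction with nApoE4, and 33.1% higher and 34.6% lower with nApoE3. Bsg (basigin) and Emb (embigin), the chaperones that take Slc16 carriers to the membrane, both fell with nApoE4 (-0.28 and -0.42), and Emb fell with nApoE3 (-0.17) while Bsg did not pass (0.03, adjusted p = 0.507). Of 23 genes of amino acid sensing at the lysosome, 4 rose and 7 fell with nApoE4, with a median log2 fold change of -0.09, and 9 rose and 9 fell with nApoE3, with a median of -0.01. Tfeb, a factor that drives lysosomal genes, fell with both (-1.75 and -1.70), as did Rragd (-1.08 and -1.51), and the leucine sensor Sesn2 rose with both (1.21 and 0.24). Sesn1, of the same sestrin family, fell with both (-1.43 and -2.65).

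Of other amino acid and peptide transporters, 2 of 15 rose and 8 fell with nApoE4, with a median of -0.21 and beside the same shares of all genes, and 6 of 16 rose and 7 fell with nApoE3, with a median of 0.00. The lysosomal peptide carrier Slc15a3 rose with both, from 100.5, 118 and 103 to 591, 634 and 603 CPM with nApoE4 and from 111, 108 and 112 to 714 and 706 CPM with nApoE3. The glycine carrier Slc6a9, like Slc1a4, rose with nApoE4 (1.37) and fell with nApoE3 (-0.24). The list of enzymes that use the carried substrates also holds the mitochondrial pyruvate carriers Mpc1 and Mpc2. Its genes rose in 6 and fell in 10 of 21 cases with nApoE4, with a median of -0.18, and rose in 8 and fell in 10 of 22 with nApoE3, with a median of -0.07. Hexokinase 2 (Hk2) fell with nApoE4 (-1.27) and rose with nApoE3 (0.50), glutamine synthetase (Glul) fell with both (-0.97 and -1.14), and asparagine synthetase (Asns) rose with both (0.67 and 0.20).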

How the data were processed

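RNA of 11 BV2 samples was sequenced as single-end reads. Before deposit, the authors used Trim Galore 0.5.0 on the reads, mapped them to GRCm38.p6 with HISAT2 2.1.0 and deposited raw counts per gene from HTSeq 0.11.0, without normalization. The annotation release, the strand setting and the overlap mode are not given in the sources used here, so reads of genes that overlap on opposite strands cannot be told apart. Between 76.03 and 77.71% of all reads tallied, unaligned ones included, fell on genes, and the tally lines stayed out of the library sizes.

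Groups came from the labels. Genes were kept by filterByExpr, scaled by TMM and tested in edgeR 4.0.16 (R 4.3.3) by the quasi-likelihood F test, each fragment against its own controls, with Benjamini-Hochberg adjustment over all genes tested and a threshold of 0.05. Standard errors were derived from the F statistic, as the absolute log2 value over its square root. The difference between the fragments was the interaction over 4 group means, in which nApoE3 has 2 samples. CPM values of the Slc genes and of the listed genes use 1 TMM scale over the 11 libraries. Levels of the cell type markers and the CPM of 3 counts are scaled to library size alone. The TMM factors ran from 0.916 to 1.072, so marker sums and Slc values are not on the same scale. Per-kb levels use exon lengths of GENCODE M21 on the same build. Counting error is not small for genes near 1 CPM, such as Slc1a2 with 47, 35 and 52 counts in the nApoE4 controls. The floor is 3 counts, for counting error only.

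Named Slc genes are those with an adjusted p under 0.05, at least 1 CPM in some group and no overlap of treated and control samples, up to 10 in each direction for a fragment, and up to 5 in each direction for the other contrasts without the overlap condition. Slc7a5, Slc3a2, Slc1a5, Slc38a2, Slc16a1, Slc7a1, Slc36a1 and Slc38a9 were named whatever they did. Other low genes were added after their values were seen, as were Slc38a6 and Slc16a6, which are not low. The members and lists were chosen with earlier results of these data known. Alternatives were DESeq2 1.42.0, its size factors in edgeR, other filters, a fold above 2, the replicate number as a block, all samples in 1 fit, and leaving out each library. Promoters are from RefSeq on GRCm38.p6. In tests on simulated data with 200 genes changed 2-fold, 83.5% were recovered for nApoE4 (14057 genes), 77.5% for nApoE3 (14510), 71% for the difference (14821) and 85% for the controls (14027). Of the genes called there, 2.86 to 5.96% were unchanged ones. The 200 changed genes are far fewer than the 8145 called in the data with nApoE4, and the simulated spread followed the trend only. These shares therefore do not describe the calls made in the data.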

Additional observations from a re-analysis of the deposited data

Results flagged for a closer look

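The 17 Slc genes below, of which Slc7a6os is no transporter, passed the test of the difference between the responses to the fragments (log2 change with nApoE4 minus log2 change with nApoE3, edgeR, adjusted p under 0.05). Those with a higher value for nApoE4 were Slc1a4 (1.505), Slc2a6 (1.38), Slc1a2 (0.63), Slc43a3 (0.49), Slc7a1 (0.48), Slc2a8 (0.45), Slc7a5 (0.38), Slc38a9 (0.30), Slc38a7 (0.23), Slc38a10 (0.21) and Slc16a10 (0.17). Those with a lower value were Slc43a1 (-2.02), Slc7a14 (-1.64), Slc16a1 (-0.57), Slc7a6 (-0.31), Slc7a6os (-0.26) and Slc36a4 (-0.25). For Slc2a8 and Slc38a10, which fell with both fragments, a higher value means a smaller fall with nApoE4. Slc43a1 was below 0.8 CPM in every library, at 0.493, 0.357 and 0.793 CPM and 0.233, 0.337 and 0.227 CPM without and with nApoE4, and 0.227, 0.162 and 0.0887 CPM and 0.361 and 0.283 CPM without and with nApoE3. The calls of Slc2a8 and Slc43a1 were lost without nApoE3 replicate 1 (adjusted p = 0.0543 and 0.0921) and those of Slc38a7 and Slc38a10 without nApoE3 replicate 2 (0.0767 and 0.102). Slc38a9 and Slc16a10 lost theirs without any 1 of 9 and of 7 libraries (adjusted p up to 0.113 and 0.142), both nApoE3 samples among them. In these values, fragment and experiment cannot be told apart.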

How the results depend on the processing

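Calls with a fragment changed little over the alternatives other than the fold above 2, which is given separately below. With that fold left aside, of the 16 higher and 13 lower with nApoE4, 14 and 10 kept the call in every alternative that tested them, as did 16 of 17 and 9 of 11 with nApoE3, and 14 of 17 and 9 of 11 between the control groups, against 3 of 11 and 2 of 6 for the difference between the fragments. Leaving out 1 library gave 14 to 16 higher and 10 to 13 lower with nApoE4, 16 to 18 and 9 to 11 with nApoE3, 6 to 14 and 3 to 8 for the difference, and 14 to 20 and 9 to 14 between the controls. The lowest counts for the difference came without nApoE3 replicate 1 (7 and 3) and replicate 2 (6 and 4), which left that group with 1 sample assumed to vary like the others. Asking for a fold above 2 as well left 7 and 4 with nApoE4 and 6 and 5 with nApoE3. It left 2 and 2 for the difference, and 5 and 2 between the controls. Over all genes that fold left 10.2% higher and 7.46% lower with nApoE4, and 9.6% and 6.57% with nApoE3. Also over all genes, leaving out 1 library gave 7142 to 8827 calls with nApoE4, against 8145 with every library. Between the controls it gave 8949 to 10988, against 9879. The difference of Slc1a5, 0.00, changed sign with DESeq2 (-0.005), with its size factors (-0.0065) and over the fits without 1 library (-0.0131 to 0.0321), and that of Slc36a1, 0.04, over those fits (-0.0543 to 0.1073), and neither passed in any of these.

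The replicate number as a block (replicate block) left 4 higher and 2 lower calls for the difference and 14 and 10 with nApoE4. It left 16 and 11 with nApoE3 and 16 and 9 between the controls. Over all genes, calls went from 4331 to 2307 for the difference and from 8145 to 7036 with nApoE4. They went from 10034 to 9783 with nApoE3 and from 9879 to 9376 between the controls. Same-numbered samples did not deviate together: the correlations of their deviations were -0.09, -0.34 and -0.16 with nApoE4, -0.002 and -0.015 with nApoE3 and 0.015, -0.080 and -0.087 between the controls, and 0 of 6 samples correlated best with its own number in either set of 3 pairs. Whether same-numbered samples were handled together is not known, and groups of 2 or 3 samples are too small for these correlations to settle it.

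Depth limits the 24 Slc genes not tested with nApoE4 and the 22 not tested with nApoE3, which had at most 35 counts in a library, and leaves calls below 1 CPM on few reads. The nApoE3 group has 2 samples.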
